A study of Mus musculus with 10 samples.

Results

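The genes described here code for the proteins of the cytosolic ribosome. They were chosen by name: protein-coding mouse genes with an Rpl or Rps symbol followed by digits and at most an a, x, y or l ending, together with Rpsa, Rplp0, Rplp1 and Rplp2, with S6 kinase genes and pseudogenes left out. The rule found 80 genes, 49 of the large subunit and 31 of the small, of which 78 had a count in at least 1 library, among 20009 genes with a count. It leaves out a few ribosomal protein genes with other symbols, such as Rps3a1, Rpl36al, Fau and Rack1, which are described with the other translation genes.

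A pair of hindlimb muscles of wild-type mice were sequenced: the soleus, a postural muscle rich in slow fibres, and the TA, a fast muscle. Each muscle gave 5 libraries, 3 from males and 2 from females, with no treatment, and neither strain nor age was given in the labels used here. The labels give male replicates 1 to 3 and female replicates 1 and 2, and the deposited names give the soleus and TA of each number the same animal code, so that 5 animals stand behind the 10 libraries. The libraries matched their labelled muscle. The summed level of 5 slow fibre genes (Myh7, Tnnt1, Tnni1, Myl2 and Myl3) ran from 3457 to 4372 CPM (counts scaled to library size, a relative level) among soleus libraries and from 0 to 11.6 among TA libraries, and that of 5 fast fibre genes (Myh4, Myh1, Pvalb, Actn3 and Tnni2) from 186 to 535 and from 8764 to 15895.

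The ribosome is made of a small subunit, which reads the mRNA, and a large subunit, which joins the amino acids. Each subunit is a core of ribosomal RNA with one copy of most of its proteins, so that the genes are usually expressed together. Many of their mRNAs begin with a C followed by a stretch of pyrimidines, the 5′ terminal oligopyrimidine (TOP) tract, through which mTOR signalling sets how actively they are translated. Ribosome content is one of the things that sets how much protein a muscle fibre can make. Several of the genes carry small nucleolar RNAs (snoRNAs) in their introns, and most have many processed pseudogenes that copy the coding sequence.

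The libraries held few counts for this family. Library totals ran from 726075 to 961237 counts, and ribosomal protein genes took 0.371% to 0.449% of them in soleus and 0.274% to 0.429% in TA, or 2574 to 4318 counts a library. The gene Gm20594 alone took 22.1% to 28.4% of the counts in soleus and 17.2% to 20.9% in TA. With it and Cep295 left out of the totals, the family's shares were 0.544% to 0.683% in soleus and 0.373% to 0.554% in TA. Soleus female 2 listed 22862 transcripts, against 14993 to 16575 in the other 9 libraries, and the values without it are given where it moved a result. In whole muscle, fewer cells of a type and less RNA per cell cannot be told apart.

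Counts were spread very unevenly over the family. Rplp1 alone, an acidic protein of the ribosomal stalk, had 8480 of the 31228 counts (27.2%). Rpl4, a large-subunit protein near the exit tunnel, had 4472 (14.3%), and Rps3, a small-subunit protein at the mRNA entry channel, had 4193 (13.4%). Rps24 followed with 2825 (9.05%) and Rps21 with 1285 (4.11%), both of the small subunit, so that 5 genes held 68.1% of the counts. These are shares of counts, not corrected for length, and do not show how much of each mRNA the muscle holds. At the other end, 45 members had too few counts to be tested (0 to 73 each over all libraries, median 18), and together they held 3.54% of the family's counts. Rpl3 and Rplp2, whose proteins sit in every ribosome, were among these, with 13 and 35 counts over all 10 libraries, as was Rpsa, a small-subunit protein also known as the laminin receptor, with 73. No count was listed for Rpl10l and Rpl39l.

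The 5′ ends of the 6 members below are shown because they are the most counted coding transcripts of the genes that carry the muscle comparison (Rplp1, Rps24, Rpl39 and Rplp0) and of 2 much counted genes that were not called (Rpl4 and Rps21). They are the first 24 bases of the transcript annotated in GENCODE M21 on GRCm38, and capitals mark the longest run of pyrimidines.
Rplp1: gaTCTTTTCCTCagctgccgccaa
Rps24: TCTCCagctccggcgccgtagcca
Rpl39: ggccaccaaggctgtggCCCTCag
Rplp0: ggaccgcctggTTCTCCTataaaa
Rpl4: CTTTTCCTgtgggagcagccgggt
Rps21: CCCTCCTgcccaatagtgctgcgg
Only Rpl4 (chr9:64173375-64173398, plus strand) and Rps21 (chr2:180257377-180257400, plus strand) open with the C and pyrimidine run of a TOP tract. The run of 10 in Rplp1 (chr9:61914519-61914542, minus strand) starts at base 3, that of Rps24 (chr14:24490730-24490753, plus strand) starts with T, and those of Rpl39 (chrX:37085379-37085402, minus strand) and Rplp0 (chr5:115559467-115559490, plus strand) lie further in. A tract, here a C as first base and at least 4 pyrimidines after it, read on the transcript's strand, opened 28 of 226 coding transcripts of the family (12.4%), against 1261 of 58797 annotated coding transcripts (2.15%). Counted by gene, 22 of 80 members had such a transcript (27.5%), against 1121 of 21901 genes (5.12%). Of the most counted coding transcript of each member, the kind shown above, 8 of 75 had a tract (10.7%). Those of Rps20, Rps29 and Rpl15, which were also not called, had none, so the sequences shown do not set called apart from uncalled members. Annotated starts can miss the true first base, so a missing match says only that these letters do not open the annotated transcript.

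The main question of the design was how soleus differs from TA. The family's summed level was higher in soleus than in TA in all 5 animals. It was 3920.1, 3790.3 and 4011 CPM in soleus of males 1, 2 and 3, and 3760 and 4931 in females 1 and 2. In TA it was 2903, 3083 and 3172 in the males and 3231 and 3876 in the females. The mean was 4083 ± 485 CPM in the soleus libraries and 3253 ± 369.8 in the TA libraries (SD over 5), a ratio of 1.26, and within animals the ratio ran from 1.16 to 1.35. The groups overlapped only because TA of female 2 lay above soleus of male 2 and female 1. Leaving out both muscles of that animal was a choice made after seeing these values. It fixed in advance that the lowest soleus value (3760) lay above the highest TA value (3231). The ratio was then 1.25. Without Rplp1 the ratio of means was 1.22, without the 5 most counted genes 1.22, and without the 5 members called below 1.17, with soleus higher in 5 of 5 animals each time. Soleus female 2 raised the soleus mean in each of these sums, at 3939, 1810 and 3016 CPM. The next soleus libraries were at 2787, 1227 and 2027. Within animals the ratios ran from 1.11 to 1.37, from 1.06 to 1.49 and from 1.06 to 1.31. Ratios of means without female 2 were not computed for these sums. The large-subunit genes gave 1.28 and the small-subunit genes 1.22, again in 5 of 5 animals. For the small subunit soleus female 2 was at 2161 CPM, against 1352 to 1451 in the other soleus libraries.

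**Figure D1:**
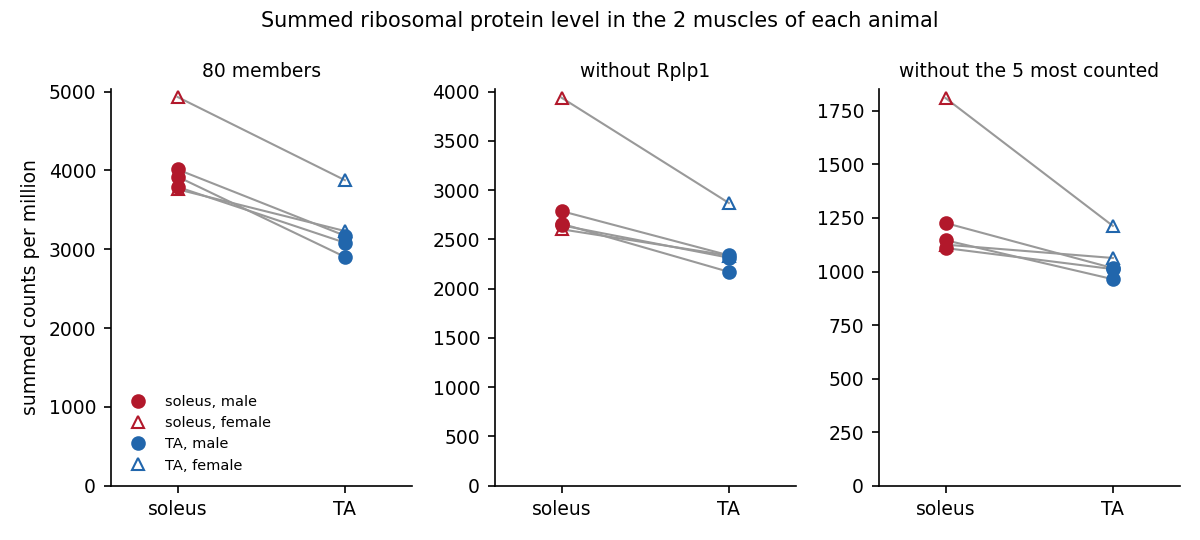
Summed level of the ribosomal protein genes in CPM (y axis) in soleus and TA (x axis), for all 80 members, without Rplp1, and without the 5 most counted; lines join the 2 muscles of an animal. Soleus was the higher muscle in 5 of 5 animals in each panel, and both muscles of female 2 were the highest of their kind.

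Gene by gene, the difference was called in few members. Of the 35 members with enough counts, 4 rose in soleus (Rpl39, Rps24, Rplp0 and Rplp1) and 1 fell (Rpl5) at an adjusted p under 0.05 in the edgeR quasi-likelihood test with sex as a covariate. This is 14.3% of those tested, against 22.0% of all 5115 genes tested. In the upward direction it is 11.4% against 11.0%, and in the downward 2.86% against 11.0%. The share called was thus near or below that of genes at large. In 3 members (Rpl39, Rplp0 and Rps24) all soleus libraries lay above all TA libraries, against 7.29% of all genes, and in 0 members all TA libraries lay above, against 7.76%. Soleus was higher in all 5 animals in 6 members (these 3, Rpl4, Rps20 and Rps4x), against 15.5% of all genes, and TA in 1 (Rpl5), against 16.1%. The median log2 fold change of soleus over TA was 0.24 for the 35 members and 0.01 for all genes, and 25 of 35 were above 0 against 50.4% of all genes. Without soleus female 2 the members' median was 0.13, with 24 of 37 tested above 0, and without both libraries of female 2 it was 0.15. Large-subunit members had 3 rises and 1 fall among 21 tested (median 0.11), and small-subunit members 1 rise among 14 (median 0.37).

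**Figure D2:**
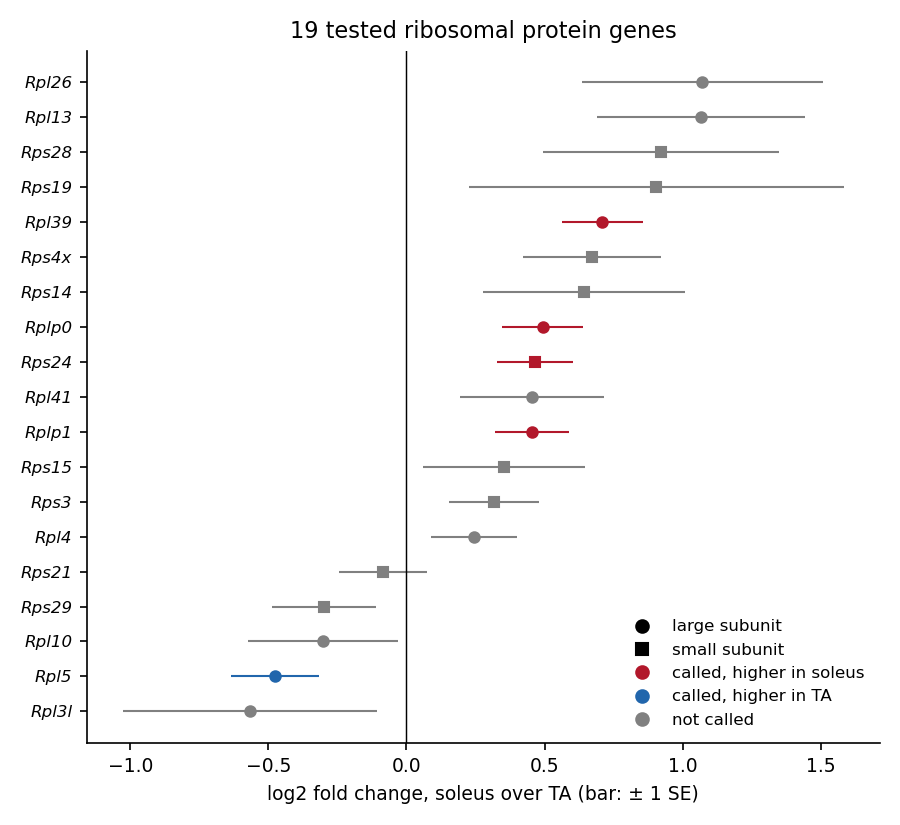
Log2 fold change of soleus over TA (x axis, bars ± 1 SE, edgeR fit over all 10 libraries) for the 19 tested ribosomal protein genes that the naming rule gives in full (y axis), with circles for the large and squares for the small subunit. Estimates lie between -0.57 for Rpl3l and 1.07 for Rpl26, and the 5 coloured genes are those called.

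Rpl39, a very short large-subunit protein at the peptide exit tunnel, differed most firmly. Its level was 215, 161 and 198 CPM in soleus of the males and 148 and 198 in the females. In TA it was 99.2, 112 and 109 in the males and 115 and 127 in the females. All soleus libraries were above all TA libraries, and the log2 fold change was 0.71 ± 0.15 (SE, n = 5 each), a 1.64-fold rise (edgeR adjusted p = 0.00440). Leaving out any single library kept the call in 10 of 10 fits, at adjusted p from 0.00279 to 0.0158. All 1254 counts of Rpl39 lay on its only coding transcript. None of the 126 31-base words (31-mers) in its coding part was unique to the gene, while all 396 words of its untranslated parts were.

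The stalk proteins recruit and stimulate the elongation factors, and Rplp0 is the base to which Rplp1 and Rplp2 bind. Rplp0 was at 175, 167 and 157 CPM in soleus of the males and at 148 and 206 in the females. TA libraries held 124, 147 and 125 in the males and 109 and 104 in the females. The groups did not overlap, although soleus female 1 and TA male 2 were almost level, and Rplp0 rose by 0.49 ± 0.15 on the log2 scale (SE, edgeR adjusted p = 0.0298). The call was lost without soleus male 1, soleus female 2, TA male 1, TA male 3, TA female 1 or TA female 2, with adjusted p up to 0.0897.

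Rplp1 was at 1261, 1147 and 1224 CPM in soleus of the males and at 1157 and 992 in the females. The TA values were 732, 768 and 833 in the males and 895 and 1006 in the females. Soleus was higher in 4 animals, and female 2 was the exception, the lowest of the soleus libraries and the highest of TA. The log2 fold change was 0.45 ± 0.13 (SE, edgeR adjusted p = 0.0301). Leaving out soleus female 2 gave 0.56 (adjusted p = 0.0103), leaving out TA female 2 gave 0.52 (0.0263), and leaving out any of the other 8 libraries lost the call, with adjusted p up to 0.0833. Rplp2, the partner of Rplp1, had 16 counts in soleus and 19 in TA and was not tested.

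Rps24, a small-subunit protein with a role in 18S rRNA maturation that is mutated in some patients with Diamond-Blackfan anaemia, was the small-subunit gene called. It was at 389, 341 and 369.9 CPM in soleus of the males and at 362 and 469 in the females. TA libraries held 266, 295 and 313 in the males and 241 and 283 in the females. The groups did not overlap, and Rps24 rose by 0.47 ± 0.14 on the log2 scale (SE, edgeR adjusted p = 0.0284). The call was lost without soleus male 1, TA male 1, TA female 1 or TA female 2, with adjusted p up to 0.103. Rps24 is known for alternative 3′ exons. Rps24-205 held 2571 of its 2825 counts, and the coding transcript Rps24-210 held 4.14% to 9.41% of them in soleus and 6.41% to 12.6% in TA, ranges that overlap, with TA higher in 4 of 5 animals.

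**Figure D3:**
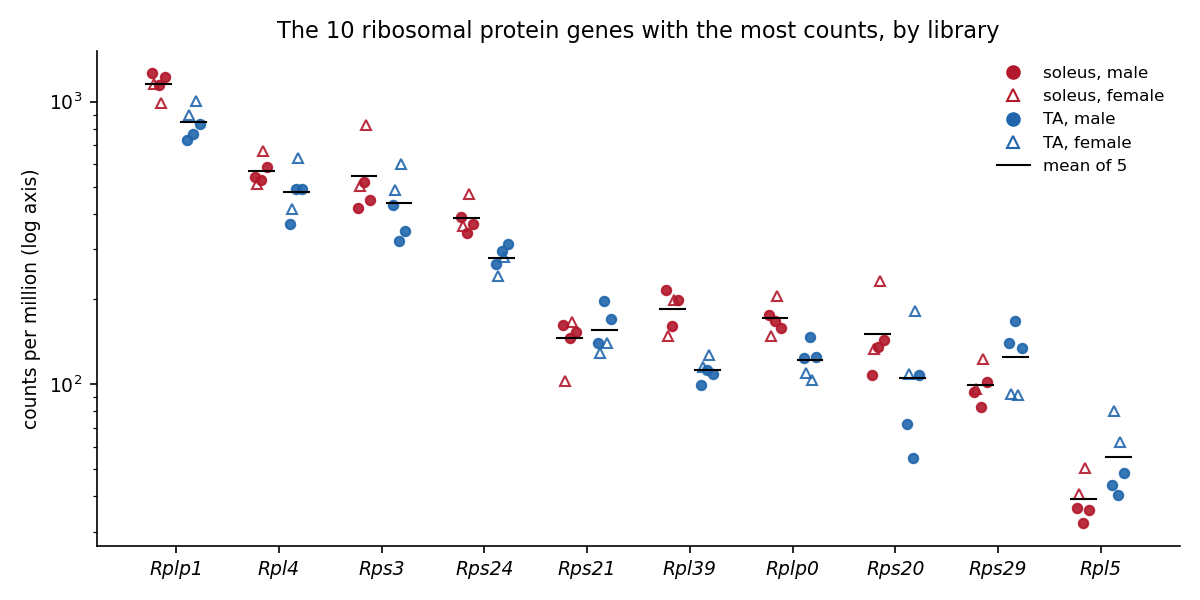
Level in CPM (y axis, log scale) of the 10 ribosomal protein genes with the most counts (x axis) in each library, with filled circles for males, open triangles for females and a line at the mean of 5. The soleus points of Rpl39, Rplp0 and Rps24 lie above all TA points, and those of Rplp1 overlap TA only through female 2.

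Rpl5, a large-subunit protein that carries 5S rRNA into the ribosome and binds Mdm2, was the member called in the other direction. Its level was 36.3, 32.1 and 35.6 CPM in soleus of the males and 40.9 and 50.2 in the females. In TA it was 44.0, 40.5 and 48.5 in the males and 80.3 and 62.4 in the females. TA was higher in all 5 animals, though the groups overlapped, and the log2 fold change was -0.48 ± 0.16 (SE, edgeR adjusted p = 0.0499). Leaving out any single library lost the call, with adjusted p from 0.0539 to 0.125, and so did the animal as a block (adjusted p = 0.0779) and DESeq2 size factors, where 4 members rose and 0 fell. In all it was lost in 17 of 18 alternatives. Of the 406 counts of Rpl5, 387 lay on Rpl5-204, an annotated retained-intron transcript, and 8 on coding transcripts.

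Members with larger estimates were not called. Rpl13 was at 8.2, 12.05 and 14.7 CPM in soleus of the males and at 17.1 and 52.5 in the females, against 3.5 to 19.1 in TA, with a log2 fold change of 1.07 ± 0.38 (SE, edgeR adjusted p = 0.0609). Soleus female 2 lay far above the other libraries. Without it the estimate was 0.65 (adjusted p = 0.245), whereas a model with the animal as a block gave 1.02 (adjusted p = 0.0491). Rpl26 had the same estimate, 1.07 ± 0.44 (adjusted p = 0.102), from 43 counts in soleus and 22 in TA. Rps28 gave 0.92 ± 0.43 (adjusted p = 0.152) and Rps19, a small-subunit protein first linked to Diamond-Blackfan anaemia, gave 0.90 ± 0.68 (adjusted p = 0.395), from 82 and 53 counts. TA female 1 held 15.1 CPM of Rps19 against 1.0 to 3.38 in the other TA libraries, and without it the estimate was 2.03 (adjusted p = 0.0588). Rps4x, the X-linked form of a small-subunit protein, was higher in soleus in 5 of 5 animals with 0.67 ± 0.25 (adjusted p = 0.0735), and gave 0.43 without soleus male 3. Rps20, also higher in 5 of 5 animals, gave 0.56 ± 0.23 (adjusted p = 0.108), and passed with the animal as a block (adjusted p = 0.0294).

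Of the other members, the much counted Rpl4, Rps21 and Rps29 were closer to level. Rpl4 was at 542, 526 and 589 CPM in soleus of the males and at 511 and 669 in the females. The TA values were 369.9, 490.0 and 490.1 in the males and 417 and 634 in the females. Soleus was higher in 5 of 5 animals, but the groups overlapped and the log2 fold change was 0.24 ± 0.16 (edgeR adjusted p = 0.306). Rps21 gave -0.08 ± 0.16 (adjusted p = 0.764), with soleus higher in 2 of 5 animals, and Rps29 gave -0.30 ± 0.19 (adjusted p = 0.298). Rps14 and Rpl41 had estimates of 0.64 ± 0.37 and 0.46 ± 0.26 (adjusted p = 0.246 and 0.2503), and in both soleus female 2 was the highest library. Without it they were 0.19 and 0.13 (adjusted p = 0.736 and 0.727). Rps15 gave 0.35 ± 0.29 (adjusted p = 0.446), and 0.06 without that library. Of the other 15 tested members, among them Rps6, the substrate of S6 kinase, and Rpl32, Rpl15 and Rpl7a of the large subunit, 0 were called. At an unadjusted p under 0.05, 9 of the 35 members differed by edgeR, 8 of them higher in soleus, and 9 by DESeq2. This is 25.7% of the members, below the 33.7% of all genes by edgeR and the 30.3% by DESeq2.

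Some members have a paralog with a tissue-restricted pattern. Rpl3l is known as a striated-muscle form of Rpl3, a protein near the peptidyl transferase centre, and both were scarcely counted. The first 60 bases of their coding sequences are shown because the pair must be told apart by sequence, and capitals mark the 13 bases that differ.
Rpl3: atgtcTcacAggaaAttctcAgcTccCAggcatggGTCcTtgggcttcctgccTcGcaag
Rpl3l: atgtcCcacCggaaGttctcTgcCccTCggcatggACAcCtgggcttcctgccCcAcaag
The coding sequences were identical at 73.9% of 1212 aligned bases and shared no 31-mer, so that a read need not be split between them. Rpl3l had 31 counts in soleus and 49 in TA. It was at 5.8, 13.4 and 13.5 CPM in soleus of the males and at 5.3 and 1.1 in the females, against 7.9, 10.4, 13.9, 8.1 and 14.1 in TA in the same order. The groups overlapped, and the log2 fold change of -0.57 ± 0.46 was not called (edgeR adjusted p = 0.436), and was -0.23 without soleus female 2. Rpl3 had 10 counts in soleus and 3 in TA and was not tested. Rps27 and Rps27l, 74.9% identical, had 15 and 8 counts in soleus and 19 and 24 in TA and were not tested either. Rpl10 was at 9.4 to 26.3 CPM in soleus and 15.1 to 24.1 in TA, with a log2 fold change of -0.30 ± 0.27 (adjusted p = 0.486), and its retrotransposed copy Rpl10l had no count. Rpl39l, 85.3% identical to Rpl39, shared 8 31-mers with it and had no count.

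How the counts fall on transcripts bears on every level above. Of the coding-part 31-mers of the family's coding transcripts, 18.2% were found in no other annotated gene, against 88.3% of those in untranslated parts. The transcripts without any 31-mer of their own had a count in 5 of 75 cases (6.67%), those with 1 to 100 in 108 of 187 (57.8%), and those with more than 100 in 161 of 222 (72.5%), and the last class held 81.3% of the family's counts. Rplp1-201 had 117 own 31-mers and Rps21-201 had 28. Some transcripts with much sequence of their own had few counts: Rplp2-201 had 496 own 31-mers and 2 counts, and Rpl3-202 had 317 and 1 count. Whether own sequence sets the counts was not tested.

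**Figure D4:**
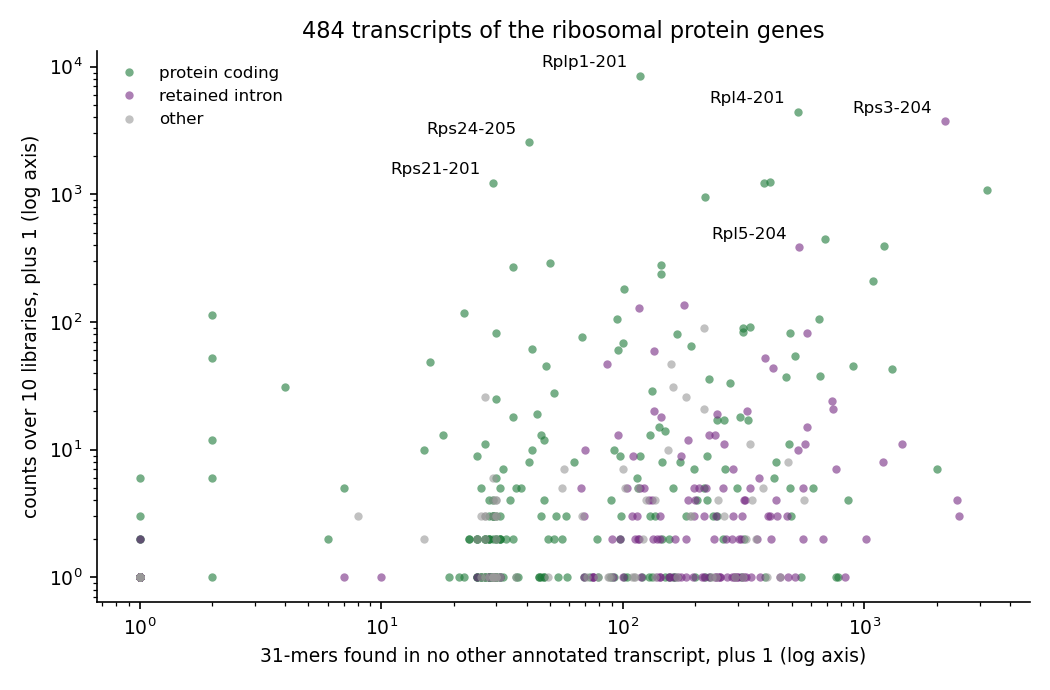
Counts over 10 libraries plus 1 (y axis, log scale) of the 484 annotated transcripts of the family against the number of their 31-mers found in no other annotated transcript, plus 1 (x axis, log scale), coloured by transcript type. Of the transcripts at the far left, with no own 31-mer, 5 of 75 had a count, and Rps3-204 and Rpl5-204 are retained-intron transcripts with many counts.

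Retained-intron transcripts, which keep part of an intron and code for no ribosomal protein, held 5038 of the family's counts (16.1%), and coding transcripts 82.8%. Most of these counts, 3732, lay on Rps3-204, whose exon 4 (chr7:99478893-99481791) runs from exon 4 into exon 7 of the coding form Rps3-201 and covers the introns between them. That exon holds the snoRNA gene Snord15b. Likewise the first exon of Rpl5-204 (chr5:107904114-107904894) holds Snord21, and Rpl10-209 (135 of the 164 counts of Rpl10) holds Snora70. Retained-intron transcripts with a snoRNA gene in an exon had a count in 19 of 27 cases (70.4%) and the others in 65 of 145 (44.8%), with median lengths of 958 and 601 bases and medians of 173 and 141 own 31-mers. No count was listed for any of the 56 snoRNA genes in the 29 members that host one.

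**Figure D5:**
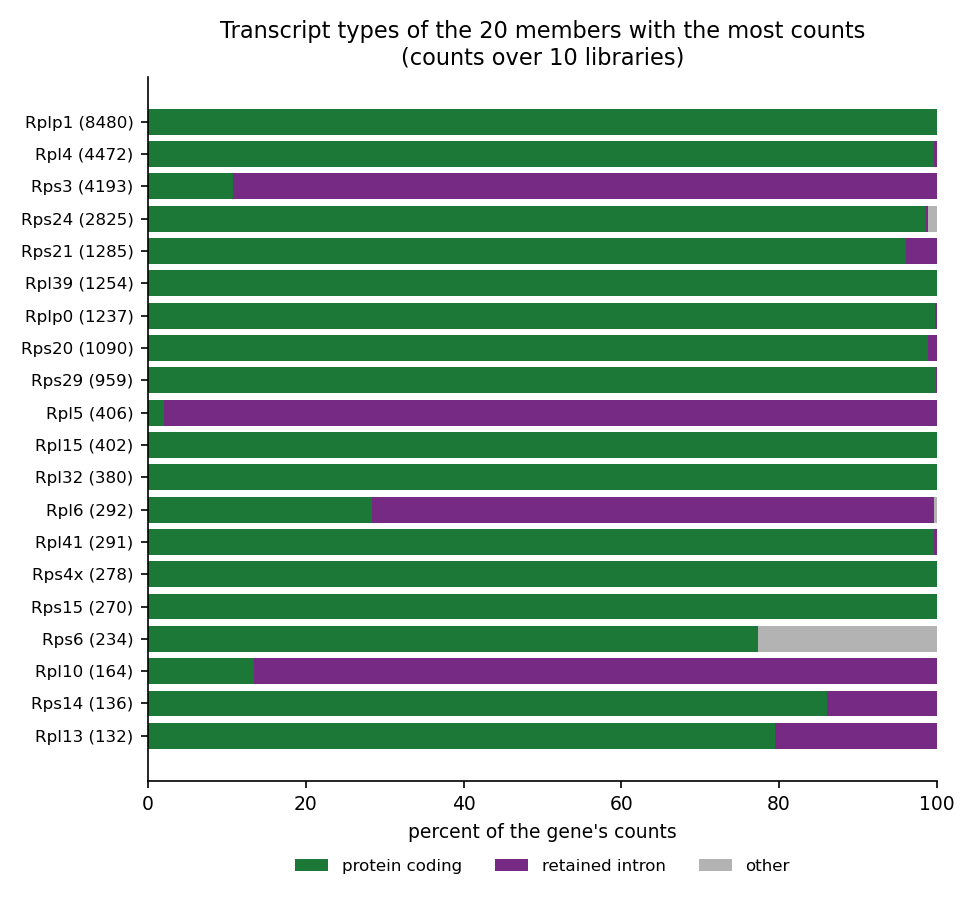
Percent of each gene's counts (x axis) on coding, retained-intron and other transcripts, for the 20 members with the most counts (y axis, total counts in brackets). Rps3, Rpl5, Rpl6 and Rpl10 stand out with most of their counts on retained-intron transcripts, while Rplp1, Rpl39 and Rpl4 have nearly all on coding ones.

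Rps3 was not called in the main fit but was called in a fit over coding transcripts alone, in the same direction. Summed over transcripts it was at 421, 521 and 449.8 CPM in soleus of the males and at 501 and 825 in the females. TA libraries held 431, 321 and 349 in the males and 486 and 600.5 in the females. Soleus was higher in 4 of 5 animals. The groups overlapped and the log2 fold change of 0.32 ± 0.16 was not called (edgeR adjusted p = 0.195). Without soleus female 2 it was 0.23 (adjusted p = 0.365). The coding transcript Rps3-201, which held 448 of the 4193 counts, was at 64.3, 69.6 and 49.2 CPM in soleus of the males and at 60.6 and 68.5 in the females. Its TA values were 47.4, 33.6 and 47.4 in the males and 40.7 and 48.3 in the females. For this transcript soleus was higher in 5 of 5 animals and the groups did not overlap. How often this holds among all transcripts was not computed. For Rps3-204 soleus was higher in 3 of 5, from 353 to 754 CPM against 287 to 549 in TA. With the fit repeated over coding transcripts alone, Rps3 rose by 0.56 ± 0.17 on the log2 scale (edgeR adjusted p = 0.0286). Whether the estimates of the 2 fits differ was not tested.

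In that fit over coding transcripts 5 of 28 members were called, all higher in soleus: Rpl39, Rplp0, Rplp1, Rps24 and Rps3. Higher in soleus were 11.4% of all 4612 genes tested in this way, and 22.4% were called in either direction. The median of the 28 members was 0.44. Rpl5, with 8 counts on its coding transcripts, had too few to be tested. The share of the family's counts on retained-intron transcripts ran from 12.1% to 20.1% among soleus libraries and from 13.4% to 19.7% among TA libraries, with TA higher in 3 of 5 animals. Rps3 held most of these counts. Without Rps3 the share was 3.38%, 3.40% and 2.97% in soleus of the males and 4.45% and 5.78% in the females, and 5.52%, 4.53%, 4.34%, 6.87% and 6.42% in TA in the same order. It was higher in TA in 5 of 5 animals, though the groups overlapped. Of these retained-intron counts 398 were of Rpl5, the member called higher in TA. The counts that the share is taken of include those of Rplp1, Rps24, Rpl39 and Rplp0, called higher in soleus. Whether the share differs apart from these genes was not tested.

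A second question was whether the sexes differ. In soleus 0 of 35 members were called between males and females by edgeR, against 0.547% of all genes. At an unadjusted p under 0.05 there were 6 (17.1%, against 16.5% of all genes). DESeq2 called 0 as well, against 2.40% of all genes, with 6 at that level (17.1%, against 11.6%). The lowest adjusted p by edgeR was that of Rps14, a small-subunit protein of the platform, at 0.121. Rps14 was at 7.0, 13.4 and 11.1 CPM in the males and at 17.1 and 50.2 in the females, and the log2 fold change of males over females was -1.70 ± 0.48. Rpl41, the smallest ribosomal protein, was at 30.4, 28.1 and 22.1 in the males and at 32.9 and 85.6 in the females, with -1.15 ± 0.35 (adjusted p = 0.1398). In both genes soleus female 2 stood far above soleus female 1, and without it the estimates were -0.72 and -0.30 (adjusted p = 0.788 and 0.871).

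That library carried the soleus comparison of the sexes. The median log2 fold change of males over females was -0.39 over the 35 members, with 28 below 0 against 51.0% of all genes, and -0.03 once soleus female 2 was left out. Soleus female 2 was the highest soleus library in 26 of the 35 tested members (74.3%), against 30.6% of all genes tested. Without soleus female 1, so that female 2 alone stood for the females and was taken to vary like the other groups, 5 members were called: Rpl13, Rpl32, Rpl41 and Rps14 were lower and Rpl3l was higher in males. This is 12.8% of the 39 members tested, against 16.5% of all 6194 genes tested in that fit. Both muscles of this animal were high in the family: TA female 2 was the highest TA library in 18 of 35 members (51.4%, against 26.1% of all genes). The summed level of the macrophage markers, 6 genes of which 3 were tested, was lowest in this animal in both muscles (138 CPM in soleus and 224 in TA), and that of 4 satellite cell markers was highest (233 and 78.5). The summed level of 6 fibro-adipogenic markers was also lowest in this animal, at 142 CPM in soleus (1297 to 9500 in the others) and 245 in TA (517 to 3447). That of 5 genes of all fibres (Acta1, Ckm, Mb, Des and Ttn) was 37708 in TA female 2, against 50936 to 53372 in the other TA libraries, and 59209.8 in soleus female 2, within the range of the other soleus libraries. Their part in the result was not tested.

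In TA 0 of 35 members were called between the sexes by edgeR, with 8 at an unadjusted p under 0.05 (11.7% of all genes), and 0 by DESeq2, with 4. Of all genes 0.645% were called. Rps29, a zinc-binding small-subunit protein, had the lowest adjusted p (0.194). It was at 139.8, 167 and 134 CPM in the males and at 91.9 and 91.5 in the females, without overlap, and the log2 fold change of males over females was 0.68 ± 0.20. Rpl5 was higher in females, with 44.0, 40.5 and 48.5 in the males and 80.3 and 62.4 in the females, and gave -0.68 ± 0.21 (adjusted p = 0.216). The median over the 35 members was -0.34, with 25 below 0 against 52.2% of all genes. Without TA female 2 it was -0.19.

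Whether the muscle difference depends on sex was tested as an interaction. No member was called by edgeR (0 of 35, against 0.0% of all genes), with 3 at an unadjusted p under 0.05 (8.57%, against 6.86%). DESeq2 also called 0, against 0.0587% of all genes, with 1 at that level (2.86%, against 3.97%). Rps29 had the smallest p, with an interaction of -0.91 ± 0.28 on the log2 scale (edgeR adjusted p = 0.611). In soleus it was at 93.6, 82.98 and 102 CPM in the males and at 96.2 and 122 in the females, so that soleus lay below TA in males and above it in females. Rps15 followed with -1.26 ± 0.50 (adjusted p = 0.711), which was -0.62 without soleus female 2. With 2 females a muscle, the sex comparisons can show only large differences.

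Other parts of the translation machinery were read from the same fit. In that fit 11.0% of all 5115 genes tested were called higher in soleus and 11.0% higher in TA. The ribosomal protein genes with other symbols, among them Fau, Rack1, Rps3a1, Rpl36al, Rpl22l1 and Rpl7l1, had 0 calls among 4 tested, with a median log2 fold change of 0.31. Of 30 initiation factor genes tested, 4 rose in soleus and 3 fell (median 0.10). Eif3g and Eif3d, subunits of the eIF3 scaffold, rose by 1.02 ± 0.24 and 0.58 ± 0.15 (SE, edgeR adjusted p = 0.00895 and 0.0161). Eif1ax, which helps the scanning ribosome find the start codon, fell by 1.14 ± 0.13 (adjusted p = 4.1e-05), from a mean of 185 CPM in TA to 83.9 in soleus.

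Elongation and release factors had 3 rises and 1 fall among 9 tested (median 0.29), against 11.0% of all genes in each direction. Eef2, which moves the ribosome along the mRNA, was at 3065 to 3532 CPM in soleus and 1774 to 2313 in TA, without overlap, and rose by 0.65 ± 0.12 (edgeR adjusted p = 0.00273). Eef1a2, the muscle form of the factor that brings aminoacyl-tRNA, rose by 0.46 ± 0.11 (adjusted p = 0.0111), and Eef1a1, the widespread form, by 0.74 ± 0.19 (adjusted p = 0.0138). Eef2k, the kinase that inhibits eEF2, fell by 1.83 ± 0.24 (adjusted p = 0.000145), from 36.9 CPM in TA to 10.3 in soleus on average. The summed level of these 13 genes ran from 8979 to 9687 CPM among soleus libraries and from 6283 to 6911 among TA libraries, without overlap. Genes of ribosome making, such as nucleolar proteins and RNA polymerase I subunits, had 0 calls among 18 tested by edgeR (median 0.09). Of 8 tested genes of mTOR signalling and TOP mRNA control, Mtor itself rose by 0.43 ± 0.13 (adjusted p = 0.0297).

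Markers of other cells in whole muscle were read from the same fit, in which 22.0% of all 5115 genes tested were called. Endothelial genes fell in soleus in 3 of 4 tested, with summed levels of 264 to 336 CPM in soleus and 386 to 920 in TA. Of the tested markers 1 of 4 tenocyte genes, 1 of 2 satellite cell genes and 1 of 1 adipocyte gene rose. Of 4 fibro-adipogenic genes Cd34 rose and Smoc2 fell. None of 3 macrophage and 5 erythroid genes was called. Their part in the ribosomal protein results was not tested.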

How the data were processed

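Total RNA of soleus and TA was made into Tag-Seq libraries with a Takara SMART-Seq Stranded protocol, per the labels' protocols. The submitters' processing notes name bcl2fastq, Trimmomatic 0.32, FastQC and GRCm38.p4; the aligner and counter are not given in the sources used here. The authors deposited raw counts per Ensembl transcript, with transcripts at 0 not listed. Of 40414 transcripts, 40359 matched GENCODE M21 (GRCm38) and were summed to genes.

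After filterByExpr on the 4 groups of muscle and sex (5115 genes kept), counts were scaled by TMM and tested with the quasi-likelihood F test of edgeR 4.0.16 in R 4.3.3, with Benjamini-Hochberg adjustment over all genes and a threshold of 0.05. Tissue was tested with sex as a covariate, and sex and the interaction with a mean for each group. Levels (CPM) are counts divided by the TMM-scaled library size and multiplied by 1e6. The SE is the log2 fold change divided by the root of F. DESeq2 1.42.0 was an alternative. Tested on simulated data for soleus against TA (4825 genes), the test found 57 of the 100 simulated 2-fold changes and 92 of the 100 simulated 4-fold changes, with 7 false calls. 31-mers were compared, on both strands, with all GENCODE M21 transcripts (Python 3.11.15).

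Same-numbered muscles carry the same animal code in the deposited names. Their deviations from the group means correlated at 0.18 to 0.24 in the 3 male pairs, and different numbers at -0.16 to -0.07. Deviations within a group offset each other, so positive values for same numbers push those for different numbers below them. The negative values are thus no separate evidence of pairing. With 2 females the value is 0.29 for both pairs by construction. Nothing else says how samples were taken, so p-values measure the spread between these samples.

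Members and lists were chosen with earlier results of these data known. Genes given in full are the called members, 4 paralog pairs, the stalk proteins and Rpsa, the 5 with the highest mean CPM, the 5 largest uncalled fold changes, the 2 smallest p per sex comparison, and up to 4 genes of each other list. Single transcripts and the members Rps20, Rpl6 and Rpl32 were named after their values were seen. Some items are not reported here.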

Additional observations from a re-analysis of the deposited data

Results flagged for a closer look

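Of 36 groups of 5 libraries checked, 6 had a library at one end that stood far from the other 4, where chance gives about 1 in 20 groups. Soleus female 2 was the highest soleus library in 4 of them. It had 52.5 CPM of Rpl13, with the next library at 17.1, and 825 CPM of Rps3, with the next at 521. The family's summed level there was 4931 CPM, with the next at 4011, and 3939 without Rplp1, with the next at 2787. TA female 2 had a summed level of 2870 CPM without Rplp1, with the next at 2338. TA female 1 had 15.1 CPM of Rps19, with the next at 3.38. The 2 libraries of female 2 come from the same animal, and the sums share genes, so these values are not independent of each other.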

How the results depend on the processing

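Without a filter on low counts 1 of 78 members was called for muscle (Rpl39) instead of 5 (1.28%, against 6.82% of all genes). Between the sexes in soleus 1 was called (Rps14) instead of 0 (1.28%, against 2.24% of all genes). Leaving out both libraries of female 2, an alternative added after seeing the data, left 3 of 33 called for muscle (Rpl39, Rplp1 and Rps20; 9.09%, against 22.04% of all genes). With soleus male 1 left out, 1 member was called for muscle (2.86%, against 18.0% of all genes). With TA female 1 left out it was 1 of 39 members, against 452 genes higher in soleus and 503 in TA among 6165. Leaving out 1 library at a time gave 1 to 5 calls for muscle. It gave 0 to 5 calls for sex in soleus, where all 5 came without soleus female 1, a fit that called 16.5% of all genes. The cause was not tested. With the animal as a replicate block 6 of 35 members (17.1%, against 23.6% of all genes) were called for muscle, Rpl13 and Rps20 gained and Rpl5 lost, and the pairing changed no other call. DESeq2 size factors gave 4 calls (11.4%, against 22.0% of all genes), as did the DESeq2 Wald test (11.4%, against 20.9%). A minimum of 5 CPM on average also gave 4 (9.09%, against 18.5%). So did the removal of Gm20594, Cep295 and mitochondrial genes (12.1%, against 22.4%). Upper-quartile scaling gave 5 (14.3%, against 21.9%). Rpl39 was called under all 19 alternatives, and no called value reversed. Over all named values and alternatives, 335 kept their direction and side of the threshold, 40 lost the call and 8 gained it. The 335 include members that were not called and so could not lose a call. Among the called members, Rpl5 kept its call in 1 alternative and lost it in 17. Rplp1 kept it in 10 and lost it in 9, Rplp0 kept it in 11 and lost it in 8, and Rps24 kept it in 13 and lost it in 6. Depth limits what can be seen: 45 members were not tested, Rpl26, with 65 counts, has a standard error of 0.44 on the log2 scale, and how reads shared with copies were counted is not given.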

Other observations

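Named pseudogenes of the family, of which 136 of 294 had a count, held 1508 counts, or 4.83 for every 100 counts of the genes themselves. Rps24-ps3, a copy of Rps24, had 564 of them. Its level ran from 41.5 to 116 CPM among soleus libraries and from 43.9 to 95.6 among TA libraries, with overlap, and the log2 fold change of 0.17 ± 0.17 was not called (edgeR adjusted p = 0.546). The summed level of the pseudogenes was 204.5 ± 76.0 CPM for soleus and 148 ± 41.2 for TA (SD, 5 libraries a muscle), a ratio of 1.38 against 1.26 for the genes, with soleus higher in 5 of 5 animals. Soleus female 2 raised the soleus mean, at 337 CPM against 150 to 192 in the other soleus libraries. Within animals the ratio ran from 1.07 to 1.69. Reads on these copies may come from the copies or from the genes they resemble, and the counts do not tell these apart.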
